A study of Mus musculus with 2 samples.

Results

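A set of 7 genes of the leukaemia inhibitory factor (LIF) pathway was followed in mouse cells: the receptor chains Lifr and Il6st, the kinase Jak3, the transcription factor Stat3, and Bcl3, Junb and Sgk1, which are described as downstream of it. They were taken by name, with all of their probes, from a mouse bead array. The 7 genes were represented by 9 of the 46643 probes, 2 each for Jak3 and Stat3 and 1 for each of the others, out of 8102 genes that could be named. The series holds 2 samples, each of total RNA on 1 array: ES, sampled at day 0, and EB, sampled at day 4. The labels leave both abbreviations unexplained; they commonly mean embryonic stem cells and embryoid bodies (cell aggregates that form as stem cells differentiate). Strain, genotype, cell line, growth medium, added LIF and feeder cells are not given in the sources used here, for either sample. Neither group had a replicate, no test was made, and every difference describes these 2 arrays: culture, array and group cannot be told apart.

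LIF is a cytokine of the interleukin-6 family that keeps mouse embryonic stem cells undifferentiated in culture. It brings together its own receptor, encoded by Lifr, and the shared signalling chain gp130, encoded by Il6st. Kinases of the JAK family bound to these chains phosphorylate them, STAT3 docks on the phosphorylated tails, is itself phosphorylated, and moves to the nucleus to act on its target genes. Cells that leave the pluripotent state lose their dependence on this signal.

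The control sequence of one of these genes has a known link to the pathway and is printed for that reason. The interleukin-6 response element described for the mouse Junb promoter combines a site for ETS factors, CAGGAAGC, with a site that resembles the cyclic AMP response element, TGACGCGA. Both were searched on both strands in the RefSeq promoter windows of GRCm38.p6, which run from 250 bases before to 50 bases after each annotated start. The Junb window held both, the first on the opposite strand, between bases -118 and -99 from the start. Of 32851 windows, 3.87% held the first, 0.332% the second, and 3 held both, so the pair is rare among windows of that length. Junb was chosen for this search because the element is known there, so its match is a description of the promoter and not a result of the arrays. The windows were also searched for TTCNNNGAA, the general letters of a STAT site, which read the same on the opposite strand. It was found in 1 of the 13 windows of the 7 genes, the most upstream of 6 for Sgk1, against 8.3% of all windows, so these windows held it about as often as any. No match says only that these letters are not in the window. The upstream parts that lie outside the annotated genes are shown for Junb and Sgk1, which carry a match, and for Bcl3 and Stat3, which differed between the arrays and carry none. Each is written 5′ to 3′, with the element of Junb and the STAT letters of Sgk1 in capitals.
Junb, chr8:84978749-84978998, minus strand: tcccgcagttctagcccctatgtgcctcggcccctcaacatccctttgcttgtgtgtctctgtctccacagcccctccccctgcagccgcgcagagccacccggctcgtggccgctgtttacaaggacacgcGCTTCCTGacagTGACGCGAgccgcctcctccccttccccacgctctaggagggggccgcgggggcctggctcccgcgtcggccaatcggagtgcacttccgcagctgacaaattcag
Sgk1, chr10:21881934-21882183, plus strand: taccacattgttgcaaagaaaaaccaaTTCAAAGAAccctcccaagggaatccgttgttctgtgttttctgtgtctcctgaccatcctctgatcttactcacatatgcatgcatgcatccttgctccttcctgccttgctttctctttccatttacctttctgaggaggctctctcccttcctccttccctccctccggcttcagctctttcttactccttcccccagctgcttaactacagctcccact
Bcl3, chr7:19822825-19823005, minus strand: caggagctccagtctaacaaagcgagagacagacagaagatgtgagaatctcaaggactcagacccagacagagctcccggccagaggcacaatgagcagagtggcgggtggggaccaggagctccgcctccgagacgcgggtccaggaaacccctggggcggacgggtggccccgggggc
Stat3, chr11:100939595-100939790, minus strand: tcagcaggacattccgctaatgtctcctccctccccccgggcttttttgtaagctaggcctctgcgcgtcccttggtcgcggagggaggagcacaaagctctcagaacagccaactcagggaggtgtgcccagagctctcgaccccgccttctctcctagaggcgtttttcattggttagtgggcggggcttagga

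Of the 7 genes, 4 (Jak3, Stat3, Bcl3 and Sgk1) were at least 2-fold lower in EB, and none was higher by that rule. Junb was 1.72-fold lower and Il6st nearly level, while the Lifr probe gave no usable signal in either sample. The 2-fold rule (EB minus ES, log2 scale, at or beyond 1 in either direction) was applied to genes whose signal passed a floor of 230.0 units in at least 1 array; the floor is the signal at which the array software's detection score in EB passed 0.99. That condition was met by 6 of the 7 genes, by 5 of them in both arrays. Of all 3867 named genes that met it, 207 (5.35%) were lower by the rule and 144 (3.72%) higher, so 4 of 6 lower stands against a background of 5.35%. The median log2 difference was -1.33 over the 6 genes and 0.064 over all 3867, of which 44.5% had a negative difference, and all 6 differences were negative, from -2.08 to -0.16. The genes were proposed with earlier results of these arrays known, so these counts are a description.

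**Figure D1:**
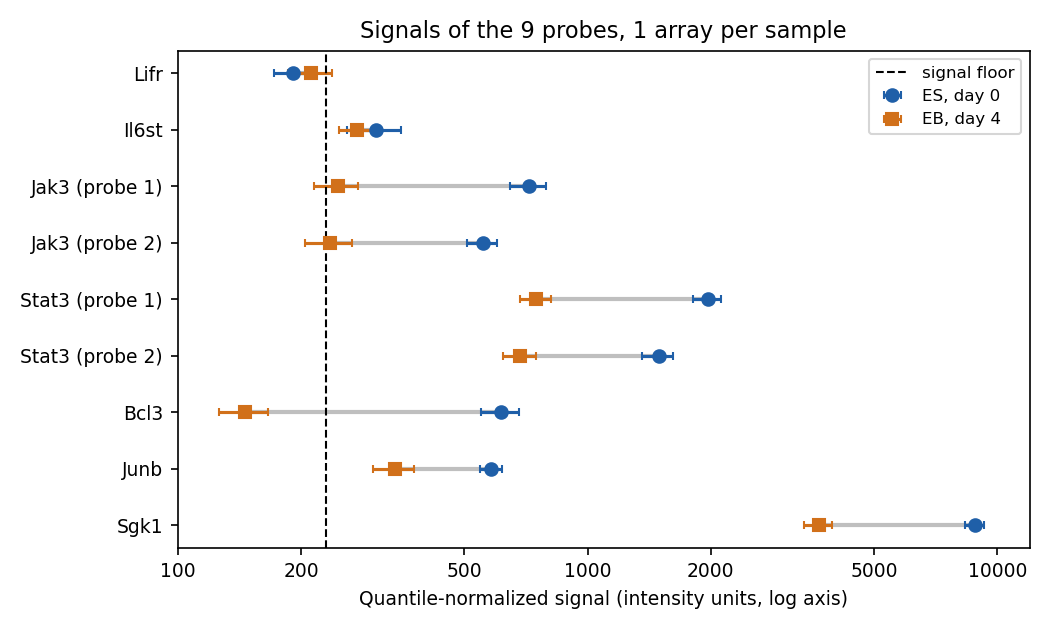
Quantile-normalized signal (intensity units, log axis) of each of the 9 probes in ES (circles) and EB (squares), 1 array each; bars are bead-level 95% intervals within an array and the dashed line is the signal floor of 230.0. Both Jak3 probes, both Stat3 probes, Bcl3, Junb and Sgk1 lie further left in EB, the 2 Il6st signals overlap, and both Lifr signals lie under the floor.

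The receptor chains came first in the pathway and were the least informative on this array. The Lifr probe (Gene ID 16880, identifier scl016880.21_193-S) read 192 units in ES and 209 in EB before normalization, with bead-level standard errors of 9.68 and 13.2. Normalized, these were 191 and 212, both under the floor, and the detection score in EB was 0.973. No ratio is given for Lifr: its transcript was not measured above background here, which does not show that it is absent. Il6st (Gene ID 16195, scl0016195.2_10-S), which encodes gp130, read 305 in ES and 274 in EB after normalization, which are 1.33 and 1.19 times the floor. Its log2 difference was -0.16 with a bead-level standard error of 0.13 and a 95% interval from -0.41 to 0.10, so the 2 signals were not separated by the error between beads. The interval covers beads within an array only, and the EB value rests on 17 beads, the fewest of any probe of these genes. Close to the floor unsubtracted background shrinks differences, so a larger change in Il6st could be hidden.

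Jak3 encodes a JAK kinase best known from blood cells, where it works with the common gamma chain of interleukin receptors. Its brighter probe (Gene ID 16453, scl016453.30_17-S) went from 719 in ES to 246 in EB, which is 2.93-fold lower or -1.55 on the log2 scale (bead-level 95% interval from -1.78 to -1.32). Its other probe (scl0016453.2_86-S) went from 555 to 236, which is 2.35-fold lower or -1.23 (from -1.46 to -1.01). Both probes were thus high in ES and close to the floor in EB, at 1.07 and 1.03 times it, with detection scores of 0.994 and 0.991. The difference between the probes' values, -0.31, had a bead-level interval from -0.64 to 0.01 that includes 0. Since the EB signals lie so near the floor, the ratio depends on how background is treated. With normexp background correction the log2 difference of the brighter probe was -1.83. With the series value table, whose values lie lower by a nearly constant amount, it was -3.09.

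The family members Jak2 and Tyk2 were above the floor, and neither passed the rule. Jak2 read 728 in ES against 568 in EB (log2 difference of -0.36, bead-level standard error 0.13), and Tyk2 305 and 317 (0.06, standard error 0.15). Jak1 is not analysed here. Markers of blood cells, in which Jak3 is best known, were examined beside it: of 6 listed genes with a probe, Hba-x, Hba-a1 and Nfe2 were above the floor in EB alone, and the summed signal of the 6 was 1096 in ES and 2112 in EB. Ptprc, the pan-leukocyte surface phosphatase, Cd3e, of the T cell receptor complex, and Itga2b, an integrin of platelets and blood progenitors, were under the floor in both. The part of these genes in the Jak3 difference was not tested. The receptor chains Il2ra and Il7r, which signal through JAK3, were also under the floor in both arrays.

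Stat3, the transcription factor that LIF acts through, was lower by both probes. The brighter one (Gene ID 20848, scl020848.1_5-S) went from 1965 in ES to 749 in EB, which is 2.62-fold lower or -1.39 on the log2 scale (from -1.56 to -1.22). The other (scl0020848.1_188-S) went from 1491 to 686, which is 2.17-fold lower or -1.12 (from -1.31 to -0.94). Stat3 was well above the floor in both samples, by 3.26 times in EB for the brighter probe, so its ratio depends less on background than that of Jak3: it was -1.47 with normexp correction and -1.65 with the series value table. The probes differed by -0.27, with an interval from -0.52 to -0.02 that just excludes 0. Over the 391 named genes with exactly 2 probes above the floor, the standard deviation of the difference between the probes' log2 values was 0.40, and the median size of the difference was 0.20. The probes of Stat3 and of Jak3 were thus further apart than the median pair and within 1 standard deviation.

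Of the other STAT genes, Stat4 passed the rule and Stat6 did not, and neither reached the floor in EB. Stat4, a STAT of interleukin-12 signalling in lymphocytes, read 539 in ES and, under the floor, 202 in EB, and was at least 2.34-fold lower (measured log2 difference of -1.42). Stat6, which acts downstream of interleukin-4, read 382 in ES and 201 in EB and was at least 1.66-fold lower (measured log2 difference of -0.93). Stat2, Stat5a and Stat5b are not analysed here.

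Bcl3, Junb and Sgk1 stand at the output of the pathway. Bcl3, an IκB-like protein that joins NF-κB subunits in the nucleus, was measured above the floor in ES alone. Its probe (Gene ID 12051, scl012051.1_129-S) read 616 in ES and 146 in EB, where its detection score was 0.276. Bcl3 was thus well measured in ES, at 2.68 times the floor, and not above background in EB, so it was at least 2.68-fold lower. The log2 difference of the measured signals was -2.08, and it has no rank among genes because the EB signal lies in the background. By its measured signals alone Bcl3 passed a 4-fold limit, and its bound of 2.68-fold did not, so no gene of the set is shown to pass it. Of all genes, 1.03% passed that limit on the lower side, also by measured signals, and Bcl3 is not ranked among them. Setting the EB signal to the floor brings it to -1.42, and the series value table takes it to -5.33, so the size of the difference is not fixed by these values while its direction is.

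Junb encodes an AP-1 transcription factor that is switched on early after cytokine stimulation. Its probe (Gene ID 16477, scl016477.1_58-S) read 582 in ES and 338 in EB, both above the floor. The log2 difference was -0.78 (from -0.97 to -0.60), a 1.72-fold lower signal that misses the 2-fold rule and passes a 1.5-fold one, which 5 of the 6 genes met on the lower side against 12.0% of all genes. With the series value table Junb gave -1.36 and passed the 2-fold rule, so its call depends on the source of the values. Fosl2, the one relative of Junb with a named probe above the floor and a possible AP-1 partner, gave a like value: 496 in ES, 291 in EB and a log2 difference of -0.77, with its other probe under the floor.

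Sgk1 encodes a serine and threonine kinase that is related to AKT and induced by glucocorticoids and other stimuli. Its probe (Gene ID 20393, scl020393.12_71-S) went from 8806 in ES to 3664 in EB, 38.3 and 15.9 times the floor. The log2 difference was -1.26 (from -1.40 to -1.13), 2.40-fold lower, with the narrowest bead-level interval of these genes. Because both signals are far above background, Sgk1 was also the steadiest under other processing: its difference lay between -1.31 with the series value table and -1.21 with the deposited signals as they are. Genes around Sgk1 did not share 1 direction. Nedd4l, a ubiquitin ligase that SGK1 phosphorylates, was 2.14-fold lower (1231 in ES and 574 in EB), Foxo1, a transcription factor that AKT and SGK kinases restrain, gave -0.85 and Rictor, a subunit of the complex that activates SGK1, -0.46. The related kinase Sgk3 gave 0.78 by its brighter probe, and its other probe stayed under the floor. Nr3c1, the glucocorticoid receptor, and Tsc22d3, a glucocorticoid-induced gene, were under the floor in both arrays.

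**Figure D2:**
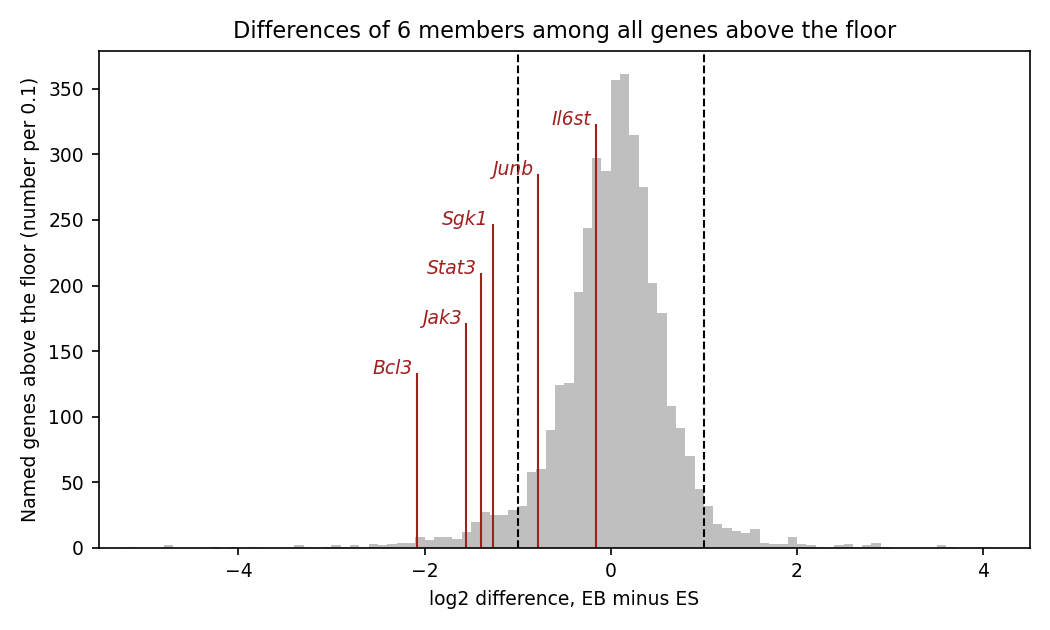
Number of named genes above the floor (grey bars, 3867 genes) by log2 difference, EB minus ES, with the 6 measured genes of the pathway as red lines and the 2-fold limits dashed. Bcl3, Jak3, Stat3 and Sgk1 lie beyond the lower limit, Junb between it and 0, and Il6st within the bulk of genes.

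The measured genes were compared with each other by their log2 differences, since signals of different probes cannot be set against each other. Among the 5 genes above the floor in both arrays, 8 of 10 pairs differed by more than the bead-level 95% interval. Jak3 and Stat3 (-0.16, from -0.44 to 0.13) and Stat3 and Sgk1 (-0.13, from -0.34 to 0.09) did not, so the order of these neighbours is not settled. In all, 7 of the 10 pairs were further apart than 0.40, the standard deviation between 2 probes of 1 gene. This spread includes differences between probes, which matter because most of these genes have 1 probe. A limit of 1 standard deviation is looser than a 95% limit on the same spread. By this looser limit Jak3, Stat3 and Sgk1 formed 1 group, between -1.55 and -1.26, with Junb and then Il6st above it. The group depends on the background left in the signals. With the series value table Jak3 gave -3.09, apart from Stat3 at -1.65 and Sgk1 at -1.31. The place of Junb is not firm either: Jak3 minus Junb was -0.77, Stat3 minus Junb -0.61, Junb minus Sgk1 0.48 and Il6st minus Junb 0.63. Each of these lies between 1 and 2 such standard deviations. A limit of 2 would not separate Junb from Jak3, Stat3, Sgk1 or Il6st. Bcl3 has no fixed place: its measured -2.08 lies below the group of Jak3, Stat3 and Sgk1, and its bound of -1.42 within it.

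**Figure D3:**
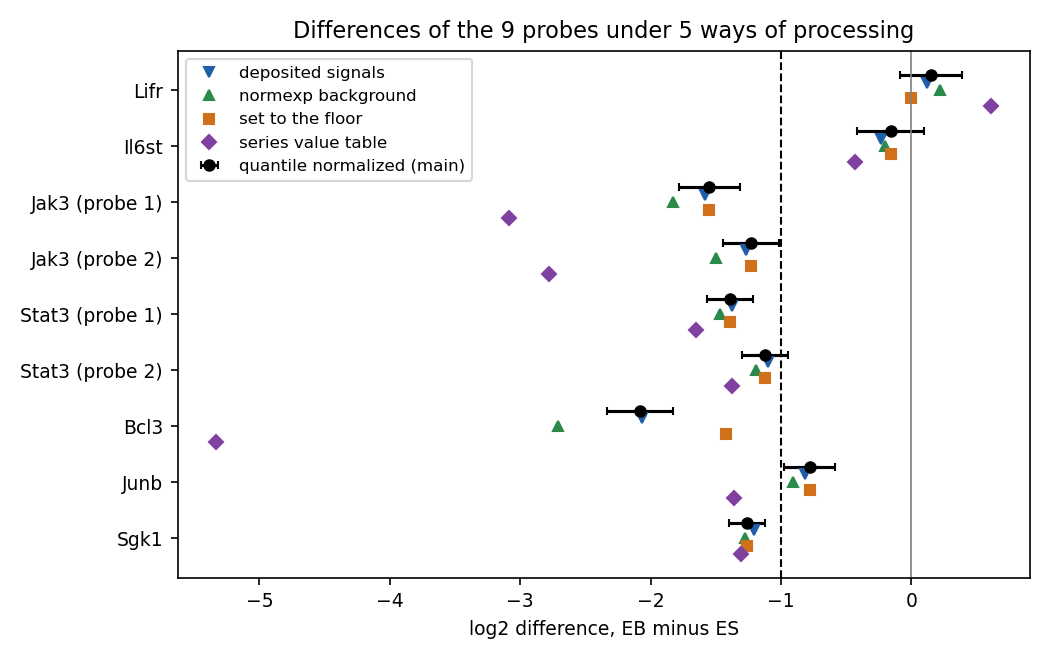
Log2 difference, EB minus ES, of each of the 9 probes from quantile-normalized signals (black, with bead-level 95% intervals) and under 4 other ways of processing; the dashed line marks 2-fold lower. Sgk1 moves little. With the series value table the brighter Stat3 probe reaches -1.65, beyond its bead-level interval, and Junb -1.36, beyond the dashed line. Jak3 and Bcl3, whose EB signals are close to or under the floor, reach -3.09 and -5.33 with it.

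The wider pathway was described from a list of 151 further genes, of which 55 had a named probe and 37 were above the floor. Of the 37, 5 were at least 2-fold lower and 1 was higher, 16.2% in all against 9.08% of all named genes, with a median log2 difference of -0.06 against 0.064. The genes that passed were Stat4, Nedd4l and 4 reported targets of STAT3 or LIF, while none of the ligands, receptors, kinases, inhibitors and adaptors on the list did. The list was drawn up with earlier results of these arrays known.

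Among 8 reported targets above the floor, 3 were lower, 1 higher and 4 under the rule, with a median of -0.42. Klf5, a transcription factor that helps to maintain pluripotency, had signals of 3792 and 474 (log2 difference of -3.00), and Klf4, a related factor induced by STAT3, read 1349 in ES and 226 in EB, just under the floor, at least 5.87-fold lower. Cdkn1a, an inhibitor of cyclin-dependent kinases, went from 2760 to 1131, which is 2.44-fold lower, by its brighter probe (-1.29), and the weaker probe gave -1.03. These 3 lay on the same side as Bcl3 and Sgk1. Pim2, a survival kinase, lay on the other, with 565 in ES and 1548 in EB, 2.74-fold higher. Its other probes gave 0.66 and a measured 1.17, the latter from an ES signal under the floor. Ccnd1, a cyclin of the G1 phase, gave 0.64, 0.62 and 0.52 by its 3 probes, and Cebpb, a transcription factor of the acute phase response, -0.29. Targets thus lay on both sides of 0, with 6 of the 8 below it. Myc did not reach the floor in either array, and Socs3, Pim1 and Fos are not analysed here.

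None of 10 inhibitors above the floor passed the rule, and their median was 0.10. Since 9.08% of all named genes passed it, groups this small often hold none, and these counts do not set them apart. Socs2, of the cytokine-induced suppressors that end JAK signalling, went from 2988 in ES to 4274 in EB (0.52), Socs1 had 289 and 312 (0.11), and Cish, another of that family, 347 and 318 (-0.13). Ptpn11, the phosphatase SHP2 that is recruited to gp130, gave 0.51 and 0.52 by its 2 probes. None of 6 adaptor and kinase genes of the other branches that lead from gp130 passed the rule, a count also near that share. Akt2, a kinase of the PI3-kinase branch, gave 0.53 and Pik3r1, the regulatory subunit of PI3-kinase, 0.81. Of the other receptor chains 3 were above the floor, with Il11ra1, which pairs with gp130 for interleukin-11, at 699 in ES and 1350 in EB (0.95 by its brightest probe, while its other 2 probes were under the floor). Ifngr2, a chain of the interferon gamma receptor, gave 0.51. The single ligand above the floor, Cntf, which also signals through LIFR and gp130, gave -0.44, with 395 in ES and 291 in EB.

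**Figure D4:**
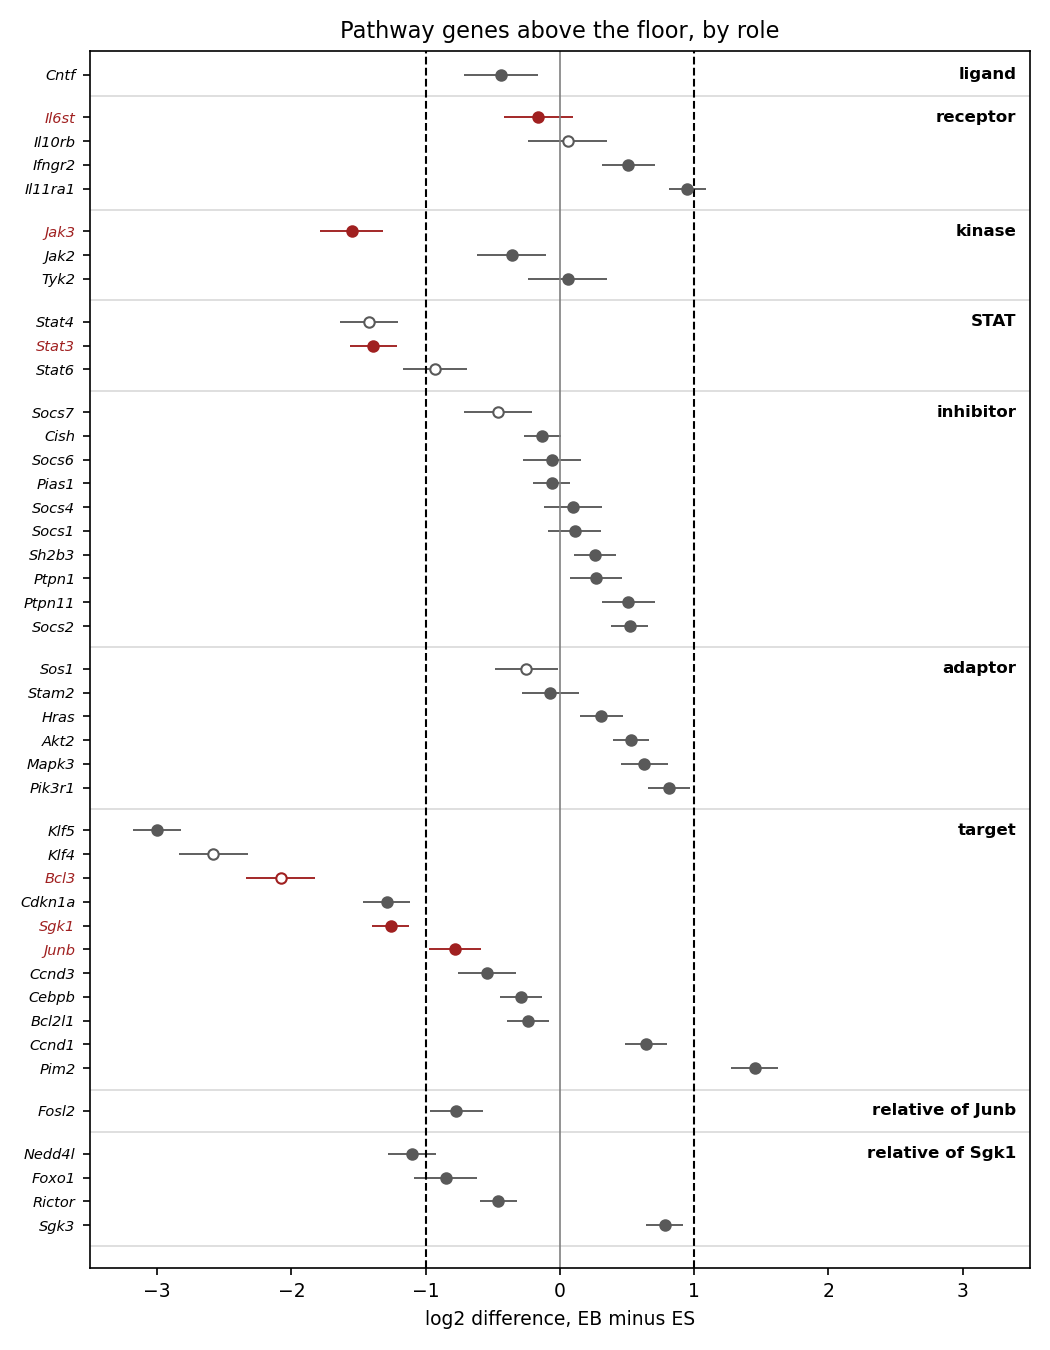
Log2 difference, EB minus ES, of the listed pathway genes above the floor in at least 1 array, sorted within its role, with bead-level 95% intervals; the 6 measured genes of the set are red, open circles mark genes under the floor in 1 array, and dashed lines are the 2-fold limits. Inhibitors and adaptors lie between the limits, while Klf5, Klf4, Bcl3, Stat4, Jak3, Stat3, Cdkn1a, Sgk1 and Nedd4l lie beyond the lower and Pim2 beyond the upper one.

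Marker genes of several cell types were examined in both samples, since the labels name no cell type. Of 8 pluripotency markers with a named probe, all above the floor in at least 1 array, 6 were lower in EB by the rule and none higher. Their median measured log2 difference was -2.80, and their summed signal was 38305 in ES and 4350 in EB. Sox2, Zfp42, Dppa3 and Fgf4 were under the floor in EB, so this median and the EB sum include background readings. As bounds, Sox2 was at least 2.14-fold, Zfp42 22.8-fold and Dppa3 6.42-fold lower. Nanog was 5.26-fold lower. Of 3 streak and mesoderm genes, 3 were higher (summed signal 703 and 4959). Of the endoderm genes, Gata4 was above the floor in EB alone (at least 1.97-fold higher) and Trf in ES alone (at least 1.40-fold lower), with summed signals of 495 and 583. The single endothelial gene with a named probe, Pecam1, which embryonic stem cells also make, was 2.53-fold lower, with 833 in ES and 329 in EB. Of 8 fibroblast markers, examined because such cells can serve as feeders, 3 were above the floor: Col1a1 was 2.58-fold lower, Fbln2 6.04-fold higher and Col6a1 level at 0.07, while Col1a2, Col3a1, Postn, Dcn and S100a4 were under the floor in both, and the summed signal was 4104 in ES and 4289 in EB. Most pluripotency markers were thus lower in EB, as were Jak3, Stat3, Bcl3 and Sgk1, while Tdgf1 (-0.17) was nearly level. Col1a1, Pecam1 and Trf of the other lists were lower too, and further genes of those lists were higher. The part of any of these markers in the result was not tested. In such bulk RNA, fewer cells that express a gene and less of its RNA in each cell cannot be told apart.

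Genes whose pair of log2 signals in ES and EB lay nearest to that of each lower gene were listed among 3308 genes above the floor in both arrays. With 2 samples such likeness rests on 2 numbers. For Jak3 they were Tmem191c (distance of 0.043 on the log2 scale), Ppm1j (0.084) and Cgn (0.129). For Stat3 they were Pigl (0.065), 1500009L16Rik (0.08) and Lefty2 (0.153), and for Sgk1 Agrn (0.204), Eif2s2 (0.214) and Mtf2 (0.332). Bcl3, under the floor in EB, could have no close gene in a set limited to signals above it, so none is named.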

How the data were processed

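Total RNA of 1 ES and 1 EB sample was hybridised to 1 bead array each. Each deposited intensity averages the beads of a probe and came from BeadStudio 2.3.41 with neither normalization nor an error model, per the file headers; the submitters' processing notes add BeadStudio 2, RMA and limma and give them no role. The deposited spread between beads fell with the bead count, with slopes on log scales of -0.44 in ES and -0.47 in EB where a standard error gives -0.5, and was read as a standard error. Per the file headers the bead counts are deposited too (medians of 38 and 37), and a detection score in EB. Median raw signals were 173.9 in ES and 173.3 in EB, under the raw floor of 225.7, so they do not measure signal over background. The precision is limited by having 1 array per group. No genome build was used for the probes.

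Both arrays' intensities were brought to 1 distribution by quantile normalization before log2 was taken. The floor (0.99 detection score, raw 225.7 and normalized 230.0) applied to both arrays. Where the dimmer signal was under it the ratio is a bound, and where both were, none is given. Bead-level intervals are 1.96 standard errors and hold no biological variation. Zero-padded identifier numbers of at least 10000 were read as NCBI Gene numbers; 9796 of 11857 (82.6%) matched RefSeq of GRCm38.p6, and all 7 genes did. The brightest probe stood for a gene. The text names all 7 genes, listed pathway genes past the size rule or among the 3 brightest of their role, and others chosen for their role after values were seen. The genes, lists and rules were chosen with earlier results of these data known. A few genes of the pathway list are not reported here and were taken out of it and its counts. The steps were tested on simulated data in which only probes far above the floor were changed and scored. That test did not cover signals near the floor, such as those of Jak3, Bcl3 and Il6st in EB. Alternatives used limma 3.58.1 in R 4.3.3, Python 3.11.15 and the series value table, whose deposited intensity is linear and whose processing is unstated (medians of 16.7 in both arrays). For genes of the set above the floor, its values lie below the normalized signals by a nearly constant amount. The brighter Jak3 probe has 537.0 against 719.4 in ES and 63.25 against 245.7 in EB, and that of Stat3 1782.0 against 1964.8 and 566.6 against 749.1. The main differences keep that amount in the signal, which makes them smaller near the floor.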

Additional observations from a re-analysis of the deposited data

How the results depend on the processing

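No paired analysis was possible because ES and EB have 1 array each, and neither could be left out. The 4 genes of the set past the 2-fold rule (Jak3, Stat3, Bcl3 and Sgk1) became 5 with the series value table or a 1.5-fold limit. They became 3 when both arrays had to exceed the floor, which drops Bcl3. With a 4-fold limit 1 was left, Bcl3, by its measured signals and not by its bound. The count stayed 4 under the other 8 settings. The 6 pathway genes past the rule became 15 (5 higher, 10 lower) with the series value table, 14 (6 and 8) with a 1.5-fold and 2 with a 4-fold limit. Under the same 3 settings 351 of all named genes (144 higher, 207 lower) became 995 (527 and 468), 942 (479 and 463) and 63 (23 and 40). With normexp correction 9 pathway genes passed (2 and 7), against 477 of all named genes (212 and 265). When both arrays had to exceed the floor, 4 of 31 pathway genes passed (1 and 3), against 237 of 3313 named genes (103 and 134). Of 42 recomputed differences of the 7 genes 33 stayed within the bead-level 95% interval, 9 moved beyond it and 0 changed the sign of a gene past the rule. Many of the 33 could not move: averaging probes leaves the 5 genes with 1 probe as they are. Setting signals to the floor likewise leaves the 5 genes above it in both arrays. The series value table moved every gene of the set but Sgk1, and normexp correction moved Jak3 and Bcl3. Signals near or under the floor limit Jak3 and Bcl3, and Il6st is limited by bead error as well. Each of these settings was planned.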
